A study of Homo sapiens with 8 samples.

Results

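The genes described here are 34 genes by which a human cell makes cholesterol, senses it, moves it inside the cell and exports it. They were picked by symbol in the authors' gene tables, and they are 34 of 58193 genes with summed reads. All 34 passed the filter on low counts that left 16449 genes for testing. They comprise 8 enzymes from acetyl-CoA to farnesyl and geranylgeranyl diphosphate, 13 enzymes from squalene to cholesterol, 5 regulators of the sterol response, 4 genes of uptake and intracellular transport, and 4 genes of efflux and its control.

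The cells were HT29, an established human colorectal adenocarcinoma line. The treated cells received either 10 µM ICG-001, 1.5 µM CWP232228 or 0.3 µM YB-0158, and control cells received 0.1% of the vehicle DMSO, with 2 RNA-seq libraries in each of the 4 groups. The series title describes the compounds as reverse-turn peptidomimetics, small molecules built to mimic a turn of a peptide chain, and ICG-001 is best known for binding the coactivator CREBBP. Treatment lasted 48 h, except in replicate 2 of both ICG-001 and CWP232228, labelled 49 h. Whether the replicates are separate cultures is not stated, and p-values therefore reflect only how far these libraries spread, which may be technical.

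Libraries held between 29071547 and 58489118 estimated reads. Levels are given as CPM, read counts scaled by library size, and the 3 counts that a count of 0 still allows are worth 0.0522 to 0.106 CPM. Of 10 colon epithelium markers, 9 were at 1 CPM or more with ICG-001 and YB-0158, and 10 with CWP232228 and DMSO. The summed level of that list was 11147 to 11572 CPM with ICG-001, 10640 to 11231 CPM with CWP232228, 12692 to 12891 CPM with YB-0158 and 14336 to 16772 CPM with DMSO. Of 6 fibroblast markers, 1 was at 1 CPM or more with DMSO and 2 with each compound. COL1A2 was at 0 in every group, and the list summed to 4.35 to 6.09 CPM over the 8 libraries. Of 4 endothelial markers, 1 was at 1 CPM or more with DMSO and CWP232228 and none with ICG-001 and YB-0158. Their sum was 0.87 to 1.74 CPM. The leukocyte list summed to 2489 to 2875 CPM, and 3 of its 6 markers were at 1 CPM or more in every group. The defining T cell gene CD3E was at 0 in every group. The part of these markers in the results was not tested. Bulk RNA cannot tell fewer cells with a gene's RNA from less of that RNA in each cell.

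Cholesterol is built from acetyl-CoA through mevalonate and isoprenoid diphosphates to squalene, which is folded into lanosterol and then trimmed and reduced to cholesterol. When sterols in the endoplasmic reticulum run low, SCAP escorts the SREBP transcription factors, encoded by SREBF1 and SREBF2, to the Golgi, where proteases release the parts that switch on the genes of synthesis and uptake. INSIG proteins hold SCAP back when sterols are plentiful, and oxysterols activate the LXR receptors, encoded by NR1H2 and NR1H3, which switch on export through ABCA1 and ABCG1.

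SREBP factors are known to act with NF-Y, which binds CCAAT boxes, and with SP1, which binds GC boxes, so the promoters of 5 members are shown as examples of enzymes (FDPS, MVK and NSDHL) and regulators (INSIG1 and SREBF2). Each is 300 bases of RefSeq sequence on GRCh38.p14, from 250 bases before the start site used for the window to 50 bases after it, on the plus strand. Those start sites differ from the gene starts of the annotation used for counting. For MVK the gene starts at 109573255 in that annotation, before the whole window. FDPS is at chr1:155308616-155308915, MVK at chr12:109573544-109573843, NSDHL at chrX:152830813-152831112, INSIG1 at chr7:155297628-155297927 and SREBF2 at chr22:41832855-41833154. Capitals mark CCAAT on either strand, which reads ATTGG on the lower one, and in SREBF2 also the sterol regulatory element TCACNCCAC, where N is any base. In NSDHL, 2 CCAAT matches on opposite strands overlap.
FDPS: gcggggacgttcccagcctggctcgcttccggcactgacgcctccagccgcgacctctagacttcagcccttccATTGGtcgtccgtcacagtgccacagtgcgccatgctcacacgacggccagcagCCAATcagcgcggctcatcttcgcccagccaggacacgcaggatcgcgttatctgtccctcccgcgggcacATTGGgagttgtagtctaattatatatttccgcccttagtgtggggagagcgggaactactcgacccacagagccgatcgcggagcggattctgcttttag
MVK: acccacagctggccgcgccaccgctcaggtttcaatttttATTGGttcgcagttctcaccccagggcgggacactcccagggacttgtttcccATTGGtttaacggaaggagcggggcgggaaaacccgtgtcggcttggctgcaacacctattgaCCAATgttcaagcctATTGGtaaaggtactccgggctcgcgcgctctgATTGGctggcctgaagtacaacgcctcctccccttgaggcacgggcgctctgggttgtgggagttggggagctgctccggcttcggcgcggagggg
NSDHL: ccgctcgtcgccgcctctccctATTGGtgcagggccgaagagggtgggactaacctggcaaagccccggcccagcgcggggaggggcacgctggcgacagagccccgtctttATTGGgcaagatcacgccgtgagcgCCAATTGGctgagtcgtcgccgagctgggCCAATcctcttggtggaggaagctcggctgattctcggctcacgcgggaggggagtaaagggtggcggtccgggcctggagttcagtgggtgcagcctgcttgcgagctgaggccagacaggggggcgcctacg
INSIG1: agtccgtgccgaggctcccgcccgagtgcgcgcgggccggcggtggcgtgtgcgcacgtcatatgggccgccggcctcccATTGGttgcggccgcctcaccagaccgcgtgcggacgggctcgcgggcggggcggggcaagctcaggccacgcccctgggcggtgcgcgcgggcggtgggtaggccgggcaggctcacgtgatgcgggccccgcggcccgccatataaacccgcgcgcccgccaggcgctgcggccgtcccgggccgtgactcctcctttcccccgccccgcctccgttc
SREBF2: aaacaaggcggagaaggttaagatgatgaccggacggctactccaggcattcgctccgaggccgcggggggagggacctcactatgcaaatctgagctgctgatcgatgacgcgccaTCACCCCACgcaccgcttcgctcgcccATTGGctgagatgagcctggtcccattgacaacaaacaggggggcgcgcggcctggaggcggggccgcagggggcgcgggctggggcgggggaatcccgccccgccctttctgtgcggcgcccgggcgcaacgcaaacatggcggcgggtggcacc
These windows hold 3 CCAAT matches in FDPS, 5 in MVK, 5 in NSDHL, 1 in INSIG1 and 1 in SREBF2.

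Promoter windows were found for 30 of the 34 members. CCAAT was present in 14 of the 18 synthesis enzymes with a window (77.8%) and in 20 of the 30 members (66.7%), against 39.7% of 27305 genes with windows of the same length. The GC box GGGCGG, searched on both strands, was present in 15 of 18 enzymes (83.3%) and in 27 of 30 members (90.0%), against 48.3% of all genes. TCACNCCAC was found in SREBF2 alone among the 30, and in 1.39% of all genes. Some genes have several windows, and a gene was counted if any of them held the motif. Among genes with 1 window, CCAAT was in 9 of 13 enzymes (69.2%) and 13 of 22 members (59.1%), against 36.2% of 22114 genes. The GC box was in 10 of those 13 enzymes (76.9%) and 19 of those 22 members (86.4%), against 43.0%. The genes compared against were not limited to genes tested here. Such matches are descriptions of letters in these windows and not binding sites. GC boxes were not present in the windows of LBR, FAXDC2 and NSDHL. CCAAT was absent from those of the enzymes PMVK, CYP51A1, LBR and FAXDC2, and from those of INSIG2, SREBF1, SCAP, NPC1, ABCA1 and NR1H2. Of the regulators, only INSIG1 and SREBF2, the examples shown, had a CCAAT match.

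Most of the pathway fell with each compound. With ICG-001, 24 of the 34 members were lower than with DMSO and 1 was higher at a Benjamini-Hochberg adjusted p under 0.05, where 24.0% of all tested genes were lower and 24.8% were higher. With CWP232228, 20 members were lower and 1 was higher, where 21.2% of all genes were lower and 21.6% were higher. With YB-0158, 25 members were lower and 1 was higher, where 22.1% of all genes were lower and 21.7% were higher. The median log2 fold change over the members was -0.80 with ICG-001, -0.37 with CWP232228 and -0.64 with YB-0158, against 0.03, 0.04 and 0.02 over all genes. These comparisons share the DMSO libraries. The members were chosen with earlier results of these data known, so their excess over all genes is a description and not a test. Unless genes are named for them, 3 values listed together belong to ICG-001, CWP232228 and YB-0158 in that order. In the authors' deposited tables, 23, 17 and 23 members were lower at the same threshold with ICG-001, CWP232228 and YB-0158, and 1, 1 and 0 were higher. Lower only in those tables were NPC2 with ICG-001 and CWP232228, and CYP51A1 with YB-0158. Lower only in the fit used here were SCAP with each compound and MYLIP with ICG-001. The same held for FAXDC2, HSD17B7 and SREBF2 with CWP232228, and for HMGCS1 and NR1H2 with YB-0158. NPC1 was called higher with YB-0158 only in the fit used here. Without the 49 h libraries, which leaves ICG-001 and CWP232228 with 1 library each, 18, 1 and 21 members were called lower.

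**Figure D1:**
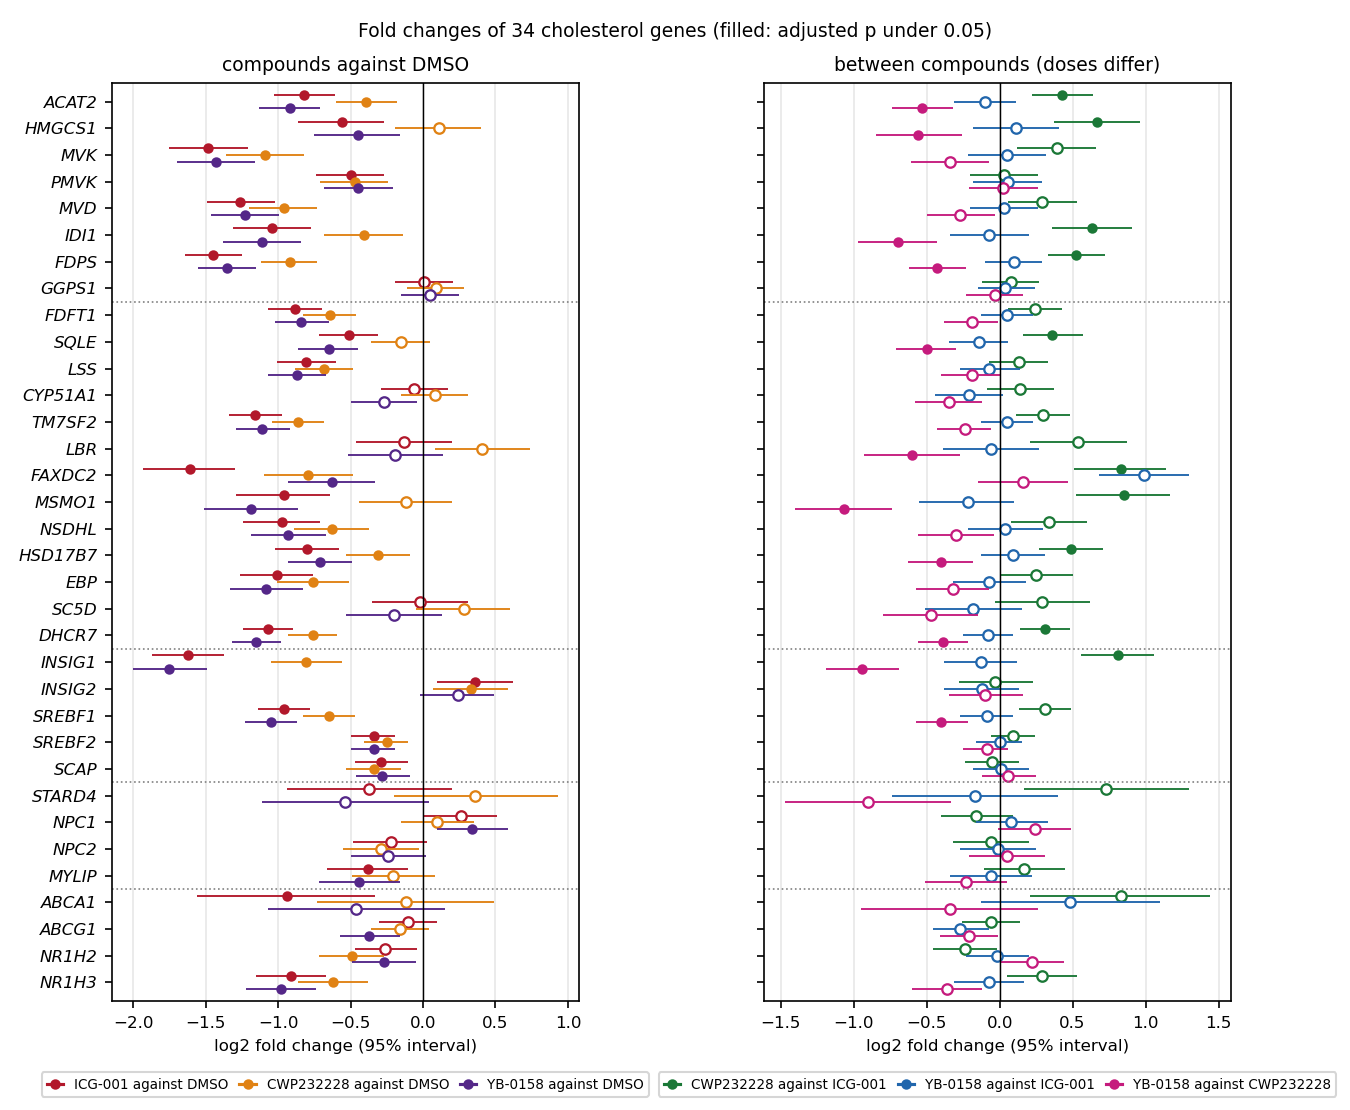
Log2 fold change of each of the 34 members with its 95% interval from the fit over all genes, for each compound against DMSO (left) and between compounds at their different doses (right). Filled points passed an adjusted p under 0.05. Most points on the left lie below 0, with INSIG1 at -1.62, -0.81 and -1.75, and on the right CWP232228 lies above ICG-001 for 28 of 34 members.

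Among the 8 enzymes of the mevalonate steps, 7 were lower with ICG-001, 6 with CWP232228 and 7 with YB-0158, and none was higher. The medians were -0.93, -0.44 and -1.01 on the log2 scale. FDPS, which makes farnesyl diphosphate, is on chromosome 1 (155308748 to 155320666, plus strand, GRCh38). Its level was 86.9 and 85.0 CPM with ICG-001, 121 and 125 CPM with CWP232228 and 91.5 and 92.2 CPM with YB-0158, against 215 and 253 CPM with DMSO. Every treated library was below both DMSO libraries, and CWP232228 lay between the other compounds and the vehicle. FDPS fell 2.72-fold with ICG-001 (log2 fold change -1.45, SE 0.09, adjusted p = 1.6e-05), 1.90-fold with CWP232228 (-0.92, SE 0.09, adjusted p = 5.1e-04) and 2.55-fold with YB-0158 (-1.35, SE 0.09, adjusted p = 2.5e-05). Its level per transcript length was 118 ± 2.94 FPKM with ICG-001, 172 ± 5.7 FPKM with CWP232228 and 129 ± 2.93 FPKM with YB-0158, against 330 ± 48.5 FPKM with DMSO (SD, n = 2 each), where it ranked first of the members.

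MVK, which phosphorylates mevalonate, was at 13.7 and 12.2 CPM with ICG-001, 18.0 and 16.0 CPM with CWP232228 and 12.9 and 14.0 CPM with YB-0158, against 33.4 and 38.9 CPM with DMSO. The log2 fold changes were -1.48 (SE 0.12, adjusted p = 5.5e-05), -1.09 (SE 0.12, adjusted p = 7.8e-04) and -1.43 (SE 0.12, adjusted p = 7.3e-05). MVK shares its locus with MMAB on the opposite strand, which had 2.4 times its reads, and the library kit did not mark strand, so its level is uncertain. MVD, which decarboxylates the product of PMVK to isopentenyl diphosphate, was at 33.2 and 31.9 CPM with ICG-001, 39.5 and 40.4 CPM with CWP232228 and 32.6 and 34 CPM with YB-0158, against 70 and 85.8 CPM with DMSO. It fell by 1.26, 0.96 and 1.23 on the log2 scale (SE 0.10 each, adjusted p = 6.2e-05, 7.7e-04 and 8.0e-05). For MVK and MVD, as for FDPS, treated and DMSO libraries did not overlap.

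IDI1, which isomerises isopentenyl diphosphate, was at 40.8 and 46.3 CPM with ICG-001, 61.9 and 73.3 CPM with CWP232228 and 38.3 and 45 CPM with YB-0158, against 93.3 and 85.9 CPM with DMSO. It fell by 1.04 and 1.11 with ICG-001 and YB-0158 (SE 0.12 each, adjusted p = 2.7e-04 and 2.4e-04) and by 0.41 with CWP232228 (SE 0.12, adjusted p = 0.024). The call with CWP232228 ended without CWP232228 replicate 1 (-0.29, adjusted p = 0.16) or DMSO replicate 1 (-0.34, adjusted p = 0.069). ACAT2, the cytosolic thiolase that joins acetyl-CoA units, fell by 0.82, 0.39 and 0.92 (adjusted p = 2.5e-04, 0.011 and 1.9e-04 with ICG-001, CWP232228 and YB-0158). Its call with CWP232228 ended without either CWP232228 library (adjusted p = 0.064 without replicate 1 and 0.069 without replicate 2). TCP1, on the strand opposite ACAT2, had 4.5 times its reads, which leaves ACAT2 uncertain.

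HMGCS1, the synthase that makes HMG-CoA, did not move alike with the compounds. It was at 82.6 and 92.8 CPM with ICG-001, 134 and 145 CPM with CWP232228 and 87.5 and 102 CPM with YB-0158, against 145 and 114 CPM with DMSO. Only the CWP232228 libraries overlapped with DMSO. HMGCS1 fell by 0.56 with ICG-001 (SE 0.13, adjusted p = 0.0075) and by 0.45 with YB-0158 (SE 0.13, adjusted p = 0.022), and was at 0.11 with CWP232228 (SE 0.13, adjusted p = 0.53). The ICG-001 call ended without ICG-001 replicate 1 (-0.48, adjusted p = 0.061), and the YB-0158 call without DMSO replicate 1 (-0.26, adjusted p = 0.069) or YB-0158 replicate 1 (-0.35, adjusted p = 0.13). Without DMSO replicate 1, HMGCS1 was called higher with CWP232228 (0.30, adjusted p = 0.049).

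PMVK, the kinase after MVK, fell by 0.50, 0.47 and 0.45 (SE 0.10 each, adjusted p = 0.0042, 0.0083 and 0.0083), with libraries between 24.0 and 25.1 CPM under the compounds against 30.9 and 37.3 CPM with DMSO. The PMVK calls ended without CWP232228 replicate 1 or 2 (adjusted p = 0.057 and 0.052) and without YB-0158 replicate 2 (0.057). GGPS1, which makes geranylgeranyl diphosphate for protein prenylation at the branch beside cholesterol, was the mevalonate member called with no compound. It was at 36.0 and 39.1 CPM with ICG-001, 39.0 and 40.2 CPM with CWP232228 and 37.3 and 40.1 CPM with YB-0158, against 36.1 and 38.5 CPM with DMSO. The log2 fold changes were 0.01, 0.09 and 0.05 (adjusted p = 0.94, 0.45 and 0.66), and the 95% intervals ran from -0.19 at the lowest to 0.28 at the highest. ARID4B on the opposite strand and a readthrough gene on the same strand, with 1.5 and 0.73 times its reads, leave GGPS1 uncertain.

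**Figure D2:**
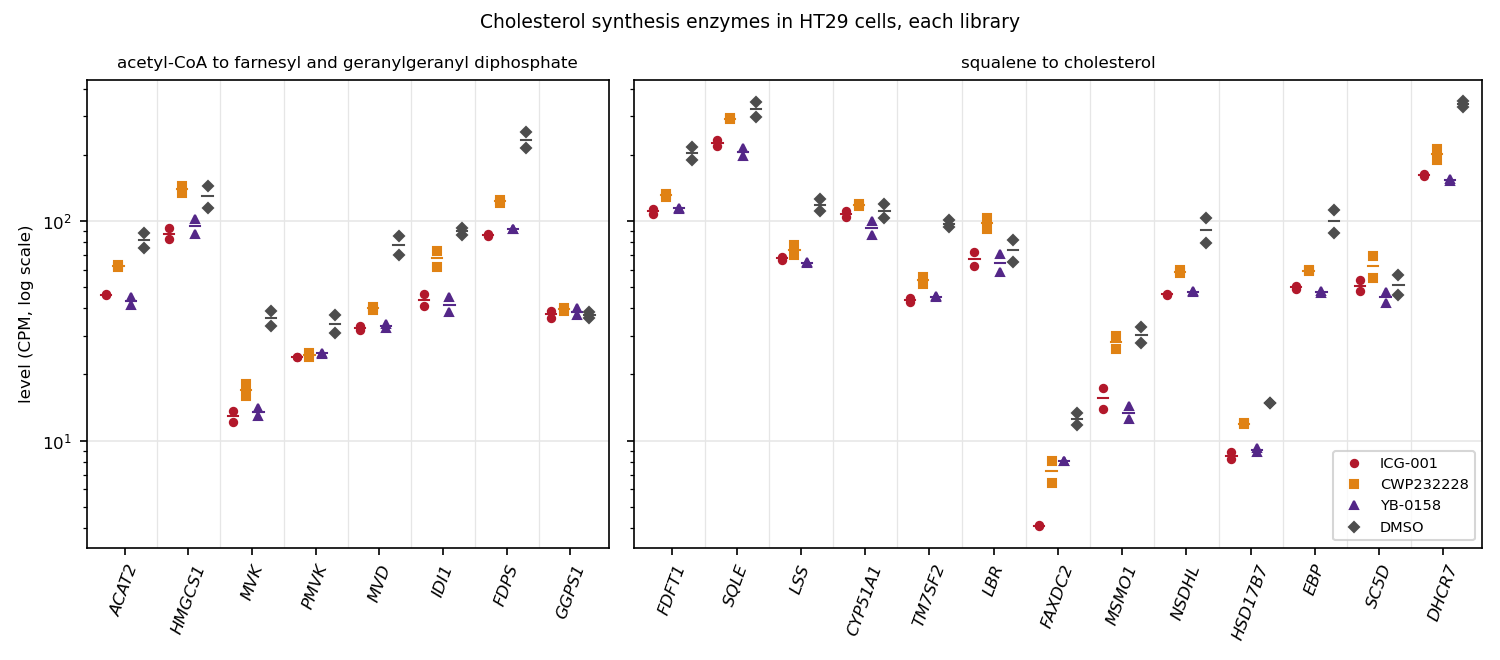
Level in CPM (log axis) of the 21 synthesis enzymes in each of the 8 libraries, with short lines at the mean of the 2 libraries of a group, in order of the pathway. The compounds lie below DMSO for most enzymes, for example FDPS at 86.9 and 85 CPM with ICG-001 against 215 and 253 CPM with DMSO, while the groups mix for GGPS1, CYP51A1 and SC5D.

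Of the 13 enzymes from squalene to cholesterol, 10 were lower with ICG-001, 8 with CWP232228 and 10 with YB-0158, and none was higher, with medians of -0.88, -0.63 and -0.84. FDFT1 and SQLE, which form squalene and its epoxide, are the entry. FDFT1 was at 108 and 113 CPM with ICG-001, 129 and 133 CPM with CWP232228 and 115 and 113 CPM with YB-0158, against 190 and 218 CPM with DMSO, and fell by 0.88, 0.64 and 0.84 on the log2 scale (SE 0.08 each, adjusted p = 9.6e-05, 0.0012 and 1.6e-04). SQLE was at 219 and 235 CPM with ICG-001, 290 and 293 CPM with CWP232228 and 197 and 214 CPM with YB-0158, against 349 and 298 CPM with DMSO. SQLE fell by 0.51 and 0.65 with ICG-001 and YB-0158 (adjusted p = 0.0021 and 7.7e-04), while the CWP232228 libraries lay just below the lower DMSO library (-0.15, SE 0.09, adjusted p = 0.2) and were called lower without DMSO replicate 2 (-0.28, adjusted p = 0.013). LSS, which folds the epoxide into lanosterol, fell by 0.81, 0.68 and 0.87 (SE 0.09 each, adjusted p = 2.3e-04, 0.0014 and 2.0e-04), with 68.6 and 66.7, 78.0 and 69.9, and 64.2 and 65.1 CPM under ICG-001, CWP232228 and YB-0158 against 111 and 126 CPM with DMSO.

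Lanosterol is demethylated by CYP51A1 and reduced at its C14 double bond by TM7SF2 or LBR. CYP51A1 was at 104 and 111 CPM with ICG-001, 117 and 120 CPM with CWP232228 and 86.0 and 99.7 CPM with YB-0158, against 120 and 103 CPM with DMSO, and no comparison was called (-0.06, 0.08 and -0.27, SE 0.10 each, adjusted p = 0.67, 0.53 and 0.059). Without DMSO replicate 2, CYP51A1 was called lower with YB-0158 (-0.39, adjusted p = 0.0066). TM7SF2 was at 44.7 and 42.8 CPM with ICG-001, 55.8 and 51.4 CPM with CWP232228 and 45.1 and 45.4 CPM with YB-0158, against 93.4 and 101 CPM with DMSO, a fall of 1.16, 0.86 and 1.11 (SE 0.08 each, adjusted p = 2.8e-05, 5.1e-04 and 4.2e-05). The offsets for GC content and length described further on brought the fall of TM7SF2 to 0.67, 0.32 and 0.67 (adjusted p = 1.3e-05, 0.0033 and 1.4e-05), close to the values they gave for LBR with ICG-001 and YB-0158 (-0.58 and -0.54). VPS51, whose gene span overlaps that of TM7SF2 on the same strand, had 2.5 times its reads, so TM7SF2 is uncertain. LBR, which is also a protein of the inner nuclear membrane, was at 62.2 and 72.5 CPM with ICG-001, 92.3 and 103 CPM with CWP232228 and 58.5 and 70.7 CPM with YB-0158, against 82.3 and 65.2 CPM with DMSO. Without the offsets, LBR was called with no compound (-0.13, 0.41 and -0.19, SE 0.14 each, adjusted p = 0.47, 0.051 and 0.3), and was called higher with CWP232228 without DMSO replicate 1 (0.59, adjusted p = 0.013). Its summed reads came to 0.800 of the authors' deposited mean.

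The C4 methyl groups are removed by MSMO1, NSDHL and HSD17B7. MSMO1, the C4 methyl oxidase on chromosome 4 (165327623 to 165343160, plus strand), was at 13.9 and 17.3 CPM with ICG-001, 26.2 and 29.8 CPM with CWP232228 and 12.5 and 14.3 CPM with YB-0158, against 33.0 and 27.8 CPM with DMSO. With ICG-001 and YB-0158 all 4 libraries were below DMSO, and with CWP232228 they overlapped with it. MSMO1 fell 1.95-fold with ICG-001 (-0.96, SE 0.14, adjusted p = 9.4e-04) and 2.27-fold with YB-0158 (-1.19, SE 0.14, adjusted p = 4.1e-04), and was at -0.12 with CWP232228 (SE 0.14, adjusted p = 0.53). NSDHL, the C4 dehydrogenase, was at 46.1 and 46.5 CPM with ICG-001, 57.8 and 59.7 CPM with CWP232228 and 47.9 and 47.4 CPM with YB-0158, against 79.0 and 103 CPM with DMSO, and fell by 0.97, 0.63 and 0.93 (adjusted p = 3.2e-04, 0.0041 and 4.5e-04). HSD17B7, the 3-ketosteroid reductase of this step, fell by 0.80, 0.31 and 0.71 (SE 0.10 each, adjusted p = 3.7e-04, 0.033 and 7.5e-04). The HSD17B7 call with CWP232228 ended without CWP232228 replicate 1 or 2 (adjusted p = 0.12 and 0.13), without either ICG-001 or either YB-0158 library (0.053 to 0.064), and with the DESeq2 Wald test (0.11). Its pseudogenes had 0.21 times its reads.

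FAXDC2, a member of the fatty acid hydroxylase family, was the member with the largest gap between ICG-001 and YB-0158. It was at 4.11 and 4.06 CPM with ICG-001, 8.07 and 6.42 CPM with CWP232228 and 8.09 and 8.11 CPM with YB-0158, against 11.8 and 13.3 CPM with DMSO. FAXDC2 fell 3.06-fold with ICG-001 (-1.61, SE 0.14, adjusted p = 7.2e-05), 1.73-fold with CWP232228 (-0.79, SE 0.14, adjusted p = 0.0033) and 1.54-fold with YB-0158 (-0.63, SE 0.13, adjusted p = 0.0057). In the authors' deposited table FAXDC2 was at -0.39 with CWP232228 and was not called (adjusted p = 0.054 there). The authors' fold changes, divided by their error, do not give the p listed beside them. They may be shrunken towards 0, so their sizes do not compare directly with those of the fit used here. CNOT8 on the opposite strand had 8.5 times its reads, so FAXDC2 is uncertain.

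The last steps are catalysed by EBP, the sterol isomerase, SC5D, the C5 desaturase, and DHCR7, the reductase that yields cholesterol from its 7-dehydro precursor. EBP was at 50.6 and 49.0 CPM with ICG-001, 59.5 and 58.9 CPM with CWP232228 and 47.1 and 48.0 CPM with YB-0158, against 88.1 and 112 CPM with DMSO, and fell by 1.01, 0.76 and 1.08 (SE 0.11 each, adjusted p = 2.2e-04, 0.0018 and 2.0e-04). DHCR7 was at 164 and 161 CPM with ICG-001, 213 and 190 CPM with CWP232228 and 152 and 156 CPM with YB-0158, against 331 and 351 CPM with DMSO, and fell by 1.07, 0.76 and 1.15 (SE 0.08 each, adjusted p = 3.0e-05, 6.3e-04 and 2.6e-05). For both genes every treated library was below every DMSO library. SC5D, between them, was at 47.9 and 53.6 CPM with ICG-001, 55.1 and 69.2 CPM with CWP232228 and 42.2 and 47.5 CPM with YB-0158, against 56.9 and 45.8 CPM with DMSO. SC5D overlapped with DMSO for each compound and was not called (-0.02, 0.28 and -0.20, SE 0.14 each, adjusted p = 0.93, 0.15 and 0.29), but was called higher with CWP232228 without DMSO replicate 1 (0.45, adjusted p = 0.039).

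The 4 synthesis enzymes called with no compound, GGPS1, CYP51A1, LBR and SC5D, had transcripts of 38% to 41.5% GC, and GC content also separated the libraries of a group. Over 8568 genes, the log2 ratio of replicate 1 over replicate 2 followed GC content with a Spearman rho of 0.79 in ICG-001, 0.60 in CWP232228 and 0.56 in YB-0158, against -0.61 in DMSO, where genes are not independent replicates. The SD of that ratio was 0.12 in ICG-001, 0.13 in CWP232228 and 0.11 in YB-0158, against 0.30 in DMSO. The part of GC content in the results was not tested beyond the correction given next. Over the 34 members, the fold change followed GC content with rho of -0.35 with ICG-001, -0.73 with CWP232228 and -0.34 with YB-0158, and over all genes with -0.43, -0.58 and -0.38. The members share their libraries, so these are descriptions.

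Of the 21 synthesis enzymes, 7 had a GC content under 45%, namely HMGCS1, IDI1, GGPS1, CYP51A1, LBR, MSMO1 and SC5D. Of these 7, ICG-001 lowered 3, CWP232228 lowered 1 and YB-0158 lowered 3. Of the other 14, the counts were 14, 13 and 14. In DMSO replicate 2 over replicate 1, 6 of the 7 were lower, with a median log2 ratio of -0.25, and 12 of the 14 were higher, with a median of 0.21. Offsets for GC content and length were then fitted to each library, treated ones included. By design they take out a trend with GC content, also one that a compound may have caused. With these offsets, 6, 4 and 6 of the 7 and 13, 13 and 13 of the 14 were called lower with ICG-001, CWP232228 and YB-0158. Over all members the offsets gave 26, 22 and 27 lower, and rho with GC content became 0.18, 0.04 and 0.07. The share of all genes called with the offsets is not given, and that of the main fit cannot stand in for it.

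With the offsets, CYP51A1 was called lower with each compound (-0.37, -0.28 and -0.52, adjusted p = 2.7e-04, 0.0038 and 3.7e-05). LBR was called lower with ICG-001 (-0.58, adjusted p = 4.0e-05) and YB-0158 (-0.54, adjusted p = 6.7e-05), as was SC5D (-0.30 and -0.37, adjusted p = 0.0061 and 0.002). HMGCS1, SQLE and MSMO1 were called lower with CWP232228 too (-0.31, -0.33 and -0.48, adjusted p = 0.0033, 0.003 and 0.0021). PMVK, at 59.5% GC, was the synthesis enzyme whose calls ended (-0.06, 0.01 and -0.06, adjusted p = 0.48, 0.96 and 0.54). FDPS kept a fall of 1.12, 0.59 and 1.07, MVK of 1.12, 0.68 and 1.1, and MVD of 0.77, 0.40 and 0.78 on the log2 scale. HMGCS1 was at -0.92 and -0.74 with ICG-001 and YB-0158, and IDI1 at -0.75 with CWP232228, further below 0 than without the offsets. With CWP232228 the fall was smaller for NSDHL (0.41), EBP (0.45) and DHCR7 (0.48). GGPS1 had no call with the offsets either (-0.13, -0.13 and -0.02).

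**Figure D3:**
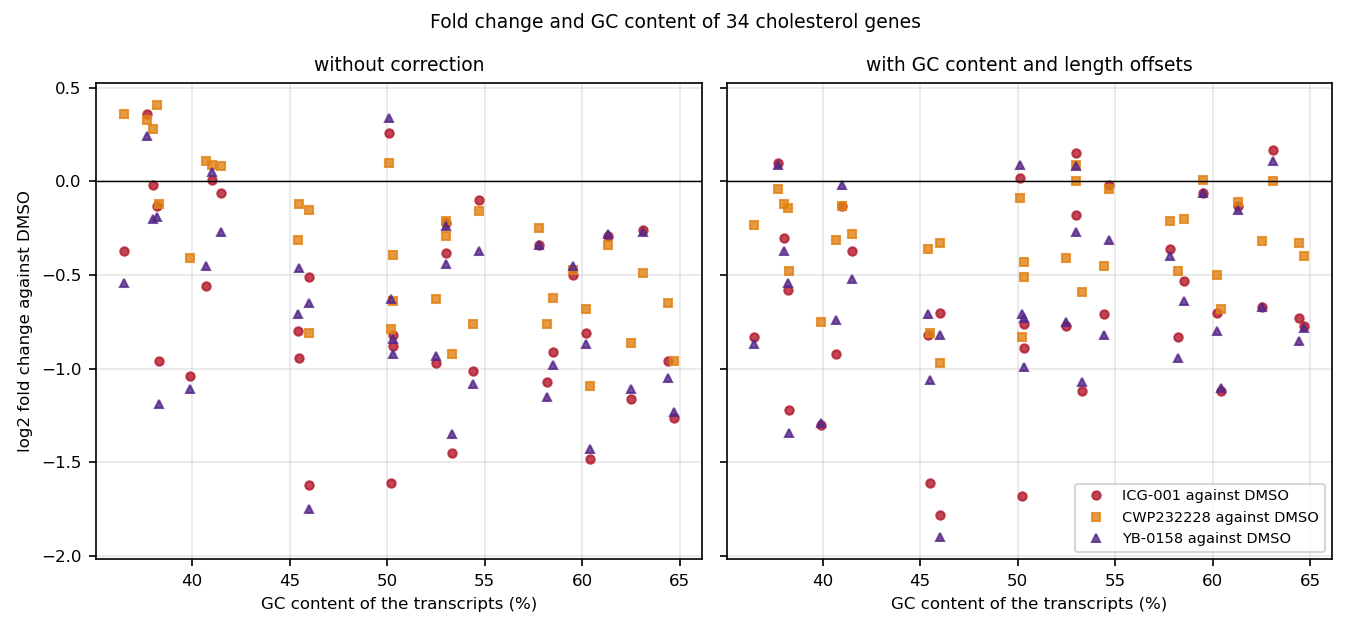
Log2 fold change against DMSO of each of the 34 members plotted against the GC content of its transcripts in percent, for the 3 compounds, without correction (left) and with offsets for GC content and length in each library (right). On the left the CWP232228 points slope down with GC content (rho -0.73), and on the right they do not (0.04). The offsets take out such a slope by design, so its absence on the right is not a result.

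Among the 5 regulators, 4 were lower with each compound. In the authors' deposited tables, however, SCAP was called with no compound and SREBF2 was not called with CWP232228. INSIG1, itself a target of SREBP and a brake on it, is on chromosome 7 (155297776 to 155310235, plus strand). It was at 32.3 and 36.2 CPM with ICG-001, 56.1 and 64.0 CPM with CWP232228 and 29.1 and 33.5 CPM with YB-0158, against 110 and 100 CPM with DMSO. No treated library reached a DMSO library, and those of CWP232228 lay between. INSIG1 fell 3.07-fold with ICG-001 (-1.62, SE 0.11, adjusted p = 2.6e-05), 1.75-fold with CWP232228 (-0.81, SE 0.11, adjusted p = 0.0015) and 3.35-fold with YB-0158 (-1.75, SE 0.11, adjusted p = 2.4e-05). Its GC content was 46.0%, and the offsets gave -1.78, -0.97 and -1.90.

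INSIG2, its paralogue, was at 33.6 and 40.3 CPM with ICG-001, 34.5 and 38.0 CPM with CWP232228 and 31.9 and 35.9 CPM with YB-0158, against 28.3 and 29.3 CPM with DMSO. It was called higher with ICG-001 (0.36, SE 0.11, adjusted p = 0.029) and CWP232228 (0.33, SE 0.11, adjusted p = 0.044) and not with YB-0158 (0.24, SE 0.11, adjusted p = 0.12). The offsets ended both calls and turned the sign with CWP232228 (0.10, -0.04 and 0.09). The ICG-001 call also ended without ICG-001 replicate 2 (0.22, adjusted p = 0.2) or DMSO replicate 1 (adjusted p = 0.052), and that of CWP232228 without either library of DMSO, CWP232228 or YB-0158 (adjusted p between 0.06 and 0.22).

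SREBF1, which encodes the SREBP1 factors, was at 153 and 136 CPM with ICG-001, 186 and 172 CPM with CWP232228 and 139 and 133 CPM with YB-0158, against 284 and 278 CPM with DMSO. It fell by 0.96, 0.65 and 1.05 (SE 0.08 each, adjusted p = 6.1e-05, 0.0011 and 4.8e-05). With the offsets the fall of SREBF1 was 0.73, 0.33 and 0.85. In the authors' deposited tables its log2 fold changes were smaller, at -0.55, -0.29 and -0.70, with the limit on their sizes given for FAXDC2. Their FPKM of SREBF1 averaged 73.7 ± 2.44 with ICG-001, 88.3 ± 2.11 with CWP232228 and 66.5 ± 2.23 with YB-0158, against 109 ± 2.76 with DMSO (SD, n = 2 each). RAI1 on the opposite strand had 0.67 times its reads, and its sum came to 0.847 of the authors' deposited mean, so SREBF1 is uncertain. SREBF2, which encodes SREBP2, the main factor of cholesterol synthesis, was at 241 and 236 CPM with ICG-001, 263 and 246 CPM with CWP232228 and 238 and 239 CPM with YB-0158, against 311 and 294 CPM with DMSO. The fall of SREBF2 was 0.34, 0.25 and 0.34 (SE 0.07 each, adjusted p = 0.0037, 0.018 and 0.0041), and the CWP232228 call ended without CWP232228 replicate 2 (-0.20, adjusted p = 0.14). In the authors' deposited table SREBF2 was at -0.13 with CWP232228 and was not called (adjusted p = 0.33 there). SCAP, the sterol sensor and escort, fell by 0.29, 0.34 and 0.28 (SE 0.08 each, adjusted p = 0.019, 0.012 and 0.024). SCAP lost its calls without ICG-001 replicate 2 (adjusted p = 0.13), CWP232228 replicate 2 (0.1), and YB-0158 replicate 1 or 2 (0.11 and 0.12), and in the fit with offsets it was at -0.13, -0.11 and -0.15 (adjusted p = 0.035, 0.1 and 0.02).

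**Figure D4:**
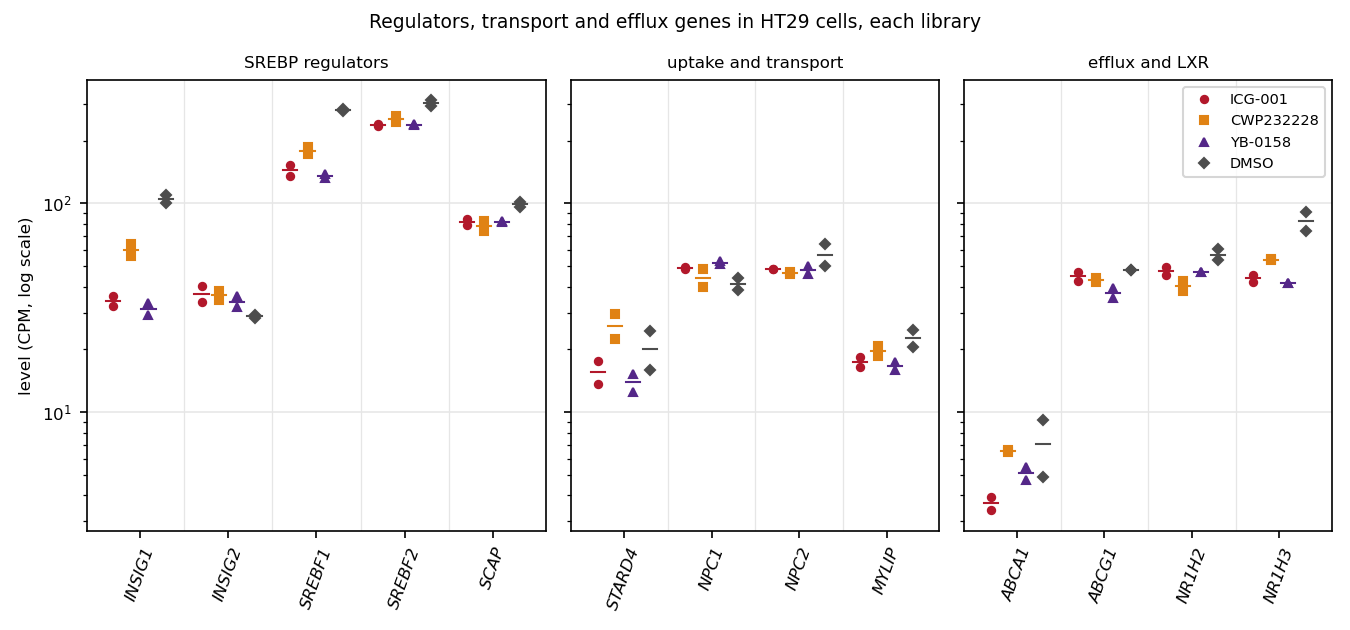
Level in CPM (log axis) of the 13 regulators, transport and efflux genes in each of the 8 libraries, with short lines at the mean of the 2 libraries of a group. INSIG1, SREBF1 and NR1H3 lie below DMSO with every compound, and the 2 DMSO libraries of ABCA1 are far apart, at 9.21 and 4.88 CPM.

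Of the 4 genes of uptake and intracellular transport, 1 was lower with ICG-001, none with CWP232228 and 1 with YB-0158, and 1 was higher with YB-0158, with medians of -0.30, -0.05 and -0.34. Of all tested genes, 24.0%, 21.2% and 22.1% were lower, and 21.7% were higher with YB-0158. A count of 1 in 4 is near those shares and is no result about these genes as a group. MYLIP, a ubiquitin ligase induced by LXR that limits uptake of lipoprotein cholesterol, was at 16.5 and 18.3 CPM with ICG-001, 18.5 and 20.7 CPM with CWP232228 and 17.5 and 15.9 CPM with YB-0158, against 24.7 and 20.5 CPM with DMSO. It fell by 0.38 with ICG-001 (SE 0.12, adjusted p = 0.033) and by 0.44 with YB-0158 (SE 0.12, adjusted p = 0.02), and was at -0.21 with CWP232228 (adjusted p = 0.21). The 2 MYLIP calls ended with the offsets (-0.18 and -0.27, adjusted p = 0.31 and 0.15), without DMSO replicate 1 (-0.23 and -0.29, adjusted p = 0.13 and 0.069), and without either library of the compound itself (adjusted p between 0.051 and 0.18). The ICG-001 call of MYLIP also ended without either CWP232228 library (0.054 each) or YB-0158 replicate 2 (0.052), and MYLIP was called lower with CWP232228 without DMSO replicate 2 (-0.35, adjusted p = 0.04).

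NPC1 and NPC2, which pass cholesterol out of late endosomes and lysosomes, were not called lower in the fit used here. The authors' deposited tables did call NPC2 lower with ICG-001 and CWP232228 (adjusted p = 0.049 and 0.042 there), and called NPC1 with no compound. NPC1 was at 49.7 and 48.7 CPM with ICG-001, 48.5 and 39.7 CPM with CWP232228 and 51.4 and 52.8 CPM with YB-0158, against 43.7 and 38.6 CPM with DMSO. It was called higher with YB-0158 (0.34, SE 0.11, adjusted p = 0.032) and not with ICG-001 (0.26, adjusted p = 0.077) or CWP232228 (0.10, adjusted p = 0.48). The YB-0158 call of NPC1 ended with the offsets (0.09, adjusted p = 0.37), without DMSO replicate 2 (0.24, adjusted p = 0.12), without either YB-0158 library (adjusted p = 0.11 and 0.14) and without either ICG-001 library (0.056 each), while NPC1 was called higher with ICG-001 without DMSO replicate 1 (0.36, adjusted p = 0.022). NPC2 was not called (-0.22, -0.29 and -0.24, SE 0.11 each, adjusted p = 0.13, 0.072 and 0.12), at 48.4 and 48.7, 46.0 and 47.0, and 50.2 and 46.0 CPM under ICG-001, CWP232228 and YB-0158 against 49.9 and 63.6 CPM with DMSO. Without DMSO replicate 1, NPC2 was called lower with each compound (-0.38, -0.45 and -0.39, adjusted p = 0.0025, 0.0013 and 0.0023). The offsets turned NPC2 the other way with each compound (0.15, 0.09 and 0.08, adjusted p = 0.05, 0.25 and 0.25).

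STARD4, a soluble carrier of cholesterol between membranes, had a larger SE than every member but ABCA1. STARD4 was at 13.7 and 17.6 CPM with ICG-001, 22.4 and 29.5 CPM with CWP232228 and 12.5 and 15.3 CPM with YB-0158, against 24.4 and 15.9 CPM with DMSO. It was not called (-0.37, 0.36 and -0.54, SE 0.24 each, adjusted p = 0.24, 0.26 and 0.11). Its GC content of 36.5% was the lowest of the members, and with the offsets it was called lower with ICG-001 (-0.83, adjusted p = 2.7e-04) and YB-0158 (-0.87, adjusted p = 2.2e-04), whereas without DMSO replicate 1 it was called higher with CWP232228 (0.71, adjusted p = 0.049) and without DMSO replicate 2 lower with YB-0158 (-0.83, adjusted p = 0.029).

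On the efflux side, NR1H3, which encodes LXR alpha, was at 45.6 and 42.2 CPM with ICG-001, 53.9 and 53.4 CPM with CWP232228 and 41.8 and 41.6 CPM with YB-0158, against 73.7 and 91.3 CPM with DMSO. It fell by 0.91, 0.62 and 0.98 (SE 0.11 each, adjusted p = 2.9e-04, 0.0032 and 2.4e-04), and by 0.53, 0.20 and 0.64 with the offsets. ACP2 on the opposite strand had 1.1 times its reads, so NR1H3 is uncertain. NR1H2, which encodes LXR beta, was at 49.8 and 45.4 CPM with ICG-001, 42.7 and 38.0 CPM with CWP232228 and 47.1 and 47.0 CPM with YB-0158, against 53.4 and 60.2 CPM with DMSO. It was called lower with CWP232228 (-0.49, SE 0.10, adjusted p = 0.0054) and YB-0158 (-0.27, SE 0.10, adjusted p = 0.048) and not with ICG-001 (-0.26, SE 0.10, adjusted p = 0.055). At a GC content of 63.1%, NR1H2 had no lower call left with the offsets, which gave 0.17 with ICG-001 (adjusted p = 0.021, higher), -0.00 with CWP232228 and 0.11 with YB-0158 (adjusted p = 0.95 and 0.093). The NR1H2 call with CWP232228 ended without CWP232228 replicate 2 (adjusted p = 0.058), that with YB-0158 without any library other than DMSO replicate 1 (0.063 to 0.18), and NR1H2 was called lower with ICG-001 without DMSO replicate 1 (adjusted p = 0.013).

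ABCA1, the transporter that loads cholesterol onto apolipoprotein A-I, had the lowest level of the members per transcript length, at 0.394 ± 0.0308 FPKM with ICG-001, 0.702 ± 0.0363 FPKM with CWP232228 and 0.550 ± 0.0615 FPKM with YB-0158, against 0.793 ± 0.379 FPKM with DMSO (SD, n = 2 each). It was at 3.40 and 3.94 CPM with ICG-001, 6.57 and 6.42 CPM with CWP232228 and 5.47 and 4.76 CPM with YB-0158, against 9.21 and 4.88 CPM with DMSO, whose libraries differed more than any treated pair. ABCA1 fell with ICG-001 (-0.94, SE 0.27, adjusted p = 0.021) and was not called with CWP232228 (-0.12, adjusted p = 0.74) or YB-0158 (-0.46, adjusted p = 0.19). The ICG-001 call of ABCA1 ended without DMSO replicate 1 (-0.41, adjusted p = 0.071) or either ICG-001 library (adjusted p = 0.12 and 0.068). With the offsets ABCA1 was called lower with each compound (-1.61, -0.81 and -1.06, adjusted p = 5.0e-05, 0.0064 and 5.9e-04), and without DMSO replicate 2 with CWP232228 (-0.52, adjusted p = 0.03) and YB-0158 (-0.86, adjusted p = 0.0021). ABCG1, which exports cholesterol to lipoprotein particles, was at 42.7 and 46.9 CPM with ICG-001, 42.0 and 44.0 CPM with CWP232228 and 39.2 and 35.3 CPM with YB-0158, against 48.1 and 47.9 CPM with DMSO. ABCG1 fell with YB-0158 (-0.37, SE 0.09, adjusted p = 0.01), a call that ended without YB-0158 replicate 2 (-0.29, adjusted p = 0.099), and was not called with ICG-001 (-0.10, adjusted p = 0.37) or CWP232228 (-0.16, adjusted p = 0.18).

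The compounds were next set against each other, at doses that differ. CWP232228 was above ICG-001 for 10 members and below it for none, where 3.65% of all genes were higher and 3.17% were lower. The 10 were ACAT2, HMGCS1, IDI1, FDPS, SQLE, FAXDC2, MSMO1, HSD17B7, DHCR7 and INSIG1. MSMO1 averaged 28.0 ± 2.5 CPM with CWP232228 and 15.6 ± 2.42 CPM with ICG-001 (SD, n = 2 each), a log2 difference of 0.85 (SE 0.14, adjusted p = 0.013). INSIG1 averaged 60 ± 5.61 CPM with CWP232228 and 34.2 ± 2.72 CPM with ICG-001 (0.81, SE 0.11, adjusted p = 0.0056), and FDPS averaged 123 ± 2.8 and 86.0 ± 1.3 CPM (0.52, SE 0.09, adjusted p = 0.012). Over the 34 members the median difference was 0.29, against 0.01 over all genes. The count was 0 without ICG-001 replicate 1, 2 without ICG-001 replicate 2, 1 without CWP232228 replicate 1, 0 without CWP232228 replicate 2, 6 without either YB-0158 library and 21 without either DMSO library. It was 7 with the replicate number as a block and 23 with the GC content and length offsets.

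YB-0158 was below CWP232228 for 11 members and above it for none, where 4.21% of all genes were lower and 3.56% were higher. The 11 were ACAT2, HMGCS1, IDI1, FDPS, SQLE, LBR, MSMO1, HSD17B7, DHCR7, INSIG1 and SREBF1. MSMO1 averaged 13.4 ± 1.26 CPM with YB-0158 and 28.0 ± 2.5 CPM with CWP232228 (-1.07, SE 0.14, adjusted p = 0.0049), and INSIG1 averaged 31.3 ± 3.12 and 60 ± 5.61 CPM (-0.94, SE 0.11, adjusted p = 0.003). LBR averaged 64.6 ± 8.68 CPM with YB-0158 and 97.8 ± 7.74 CPM with CWP232228 (-0.60, SE 0.14, adjusted p = 0.043). The count was 3 without CWP232228 replicate 1, 0 without CWP232228 replicate 2, 0 without YB-0158 replicate 1, 3 without YB-0158 replicate 2, 7 without either ICG-001 library, 21 without either DMSO library and 24 with the offsets.

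No member was called between YB-0158 and ICG-001 with edgeR, where 0.00608% of all genes were higher and none was lower. At an unadjusted p under 0.05 there were 2, FAXDC2 and ABCG1. FAXDC2 was at 8.09 and 8.11 CPM with YB-0158 and 4.11 and 4.06 CPM with ICG-001, a log2 difference of 0.99 (SE 0.14, adjusted p = 0.21, 95% interval 0.68 to 1.3), and it was called by DESeq2 (1.00, adjusted p = 0.004), with the offsets (0.98, adjusted p = 0.021) and without either DMSO library (0.99 each, adjusted p = 0.031 and 0.025). ABCG1 stood at -0.27 (95% interval -0.46 to -0.07, adjusted p = 0.83). For FDPS the interval was -0.10 to 0.29, for INSIG1 it was -0.38 to 0.12, and for MSMO1 it was -0.55 to 0.10, and over all 34 members the intervals reached from -0.74 to 1.3 with a median width of 0.47. Such intervals do not show that the compounds act alike.

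Other genes of the same biology were read from 4 lists, which were also chosen with earlier results of these data known. Beside them stand the shares of all tested genes with ICG-001, CWP232228 and YB-0158. Of these, 24.8%, 21.6% and 21.7% were higher, and 24.0%, 21.2% and 22.1% were lower. In the branches that use isoprenoids for prenylation, dolichol and ubiquinone, 5 of 14 genes were higher and 1 lower with ICG-001, 7 and 2 with CWP232228, and 3 and 1 with YB-0158, with medians of 0.10, 0.26 and 0.08, and the share higher with YB-0158 was near that of all genes. RABGGTB, a subunit of the Rab prenylating enzyme, was at 104 and 115 CPM with ICG-001, 84.6 and 89.6 CPM with CWP232228 and 90.0 and 99.0 CPM with YB-0158, against 51.2 and 54.5 CPM with DMSO, and rose by 1.05, 0.72 and 0.84 (SE 0.09 each, adjusted p = 6.1e-05, 0.001 and 2.0e-04). PDSS2, of the ubiquinone side chain, rose by 0.47, 0.37 and 0.48 (adjusted p = 0.0041, 0.017 and 0.0042). Among 11 genes of SREBP processing and of regulated degradation, 6, 5 and 2 were higher and none was lower, with medians of 0.38, 0.26 and 0.19, and the share higher with YB-0158 was below that of all genes. MBTPS2, the site-2 protease of SREBP, was at 19.0 and 20.4 CPM with ICG-001, 18.2 and 19.2 CPM with CWP232228 and 15.4 and 19.2 CPM with YB-0158, against 12.5 and 7.74 CPM with DMSO, and rose by 0.96, 0.88 and 0.77 (SE 0.21 each, adjusted p = 0.0072, 0.014 and 0.02). SPRING1, a helper of SREBP processing, rose by 0.45, 0.28 and 0.47 (adjusted p = 0.0025, 0.026 and 0.0026). The DMSO libraries of MBTPS2 lay far apart. For the genes named from these 4 lists, values with the GC content and length offsets or with fewer libraries are not given.

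In the list of trafficking, storage and uptake, 9 of 21 genes were lower with each compound, and 6 were higher with ICG-001, 5 with CWP232228 and 6 with YB-0158. The shares higher were close to or somewhat above those of all genes. VLDLR, a lipoprotein receptor, was at 22.9 and 23.2 CPM with ICG-001, 12.3 and 13.1 CPM with CWP232228 and 20.5 and 19.1 CPM with YB-0158, against 5.91 and 6.29 CPM with DMSO, and rose by 1.91, 1.06 and 1.70 (SE 0.10 each, adjusted p = 1.0e-05, 5.9e-04 and 1.9e-05). TMEM97, the sigma-2 receptor, was at 47.0 and 51.4 CPM with ICG-001, 84.2 and 81.9 CPM with CWP232228 and 43.4 and 46.2 CPM with YB-0158, against 101 and 111 CPM with DMSO, and fell by 1.11, 0.35 and 1.24 (adjusted p = 4.6e-05, 0.011 and 3.0e-05). Of 12 LXR partners and targets 10 were tested, with 4 higher and 3 lower with ICG-001, 2 and 2 with CWP232228, and 4 and 3 with YB-0158. NCOR1, the nuclear receptor corepressor, was at 232 and 236 CPM with ICG-001, 211 and 202 CPM with CWP232228 and 250 and 236 CPM with YB-0158. Its DMSO libraries were at 136 and 108 CPM. NCOR1 rose by 0.94, 0.75 and 0.99 (SE 0.10 each, adjusted p = 2.4e-04, 0.0016 and 2.2e-04).

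Per transcript length, the order of the members shifted at the top. With ICG-001, NPC2 ranked first at 128 ± 1.08 FPKM, ahead of FDPS at 118 ± 2.94 FPKM. With CWP232228, FDPS was first at 172 ± 5.7 FPKM and NPC2 followed at 126 ± 1.1 FPKM. With YB-0158, NPC2 and FDPS did not differ beyond their spread (129 ± 9.76 and 129 ± 2.93 FPKM). With DMSO, FDPS was first at 330 ± 48.5 FPKM, and DHCR7 (179 ± 5.4 FPKM), FDFT1 (175 ± 11.5 FPKM) and NPC2 (161 ± 21.8 FPKM) followed within their spread of each other. Levels of the 2 INSIG genes crossed as well in FPKM, but not in CPM, which is not scaled by length. In CPM, INSIG1 stayed above INSIG2 with CWP232228 (56.1 and 64.0 against 34.5 and 38.0 CPM). With ICG-001 and YB-0158 the CPM of the 2 genes overlapped. The crossing thus depends on the measure, and the higher calls of INSIG2 ended with the offsets. The FPKM values follow. INSIG1 was at 18.5 ± 0.494 FPKM and INSIG2 at 40.6 ± 5.59 FPKM with ICG-001, at 29.8 ± 1.14 and 41.7 ± 1.4 FPKM with CWP232228, and at 17.7 ± 0.511 and 38.5 ± 4.78 FPKM with YB-0158, against 57.2 ± 7.35 and 29.7 ± 1.97 FPKM with DMSO (SD, n = 2 each).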

How the data were processed

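RNA of 8 libraries was sequenced after TruSeq RNA v2 preparation, which does not mark strand, per the labels' protocols. Tools listed in the submitters' processing notes, without their roles, are fastp, DESeq2 and Salmon 1.3.0, and the build is GRCh38. The transcriptome release is not given in the sources used here. Per the file headers, the deposited library files hold Salmon's estimated counts and TPM per transcript, with effective lengths. The authors' deposited tables hold, per gene, a mean signal of normalized counts, a log2 fold change, its error and p-values, and FPKM per library. TPM served only to describe transcripts of 2 genes. The members and lists were chosen with earlier results of these data known.

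Of 228754 transcripts, 204677 (89.5%) matched GENCODE release 29, and unmatched ones took 1.54% to 1.85% of reads. Estimated counts were summed per gene and rounded. The edgeR 4.0.16 quasi-likelihood test (R 4.3.3, TMM scaling, filterByExpr) was fitted to all 8 libraries with 4 residual degrees of freedom, and p-values were adjusted by the Benjamini-Hochberg method over 16449 genes. Every adjusted p is from that fit unless another is named. Since 1 spread is shared and DMSO libraries lie furthest apart, p-values against DMSO may be too small and those between compounds too large. CPM are scaled counts, and intervals are 95% intervals of the fit, while floors cover counting error only. All 34 members are named, and of each further list the 2 genes with the smallest p, except 1 gene that is not reported here. The test was checked on simulated data. Alternatives used DESeq2 1.42.0 and limma 3.58.1, a DESeq2 scaling, no low-count filter, a replicate block, GC content and length offsets, and fewer libraries.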

Additional observations from a re-analysis of the deposited data

How the results depend on the processing

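The smallest library held 29071547 reads, and the effect of depth was not tested. Shares of all genes called are given for the main fit only, so counts under other settings stand without them. Leaving out 1 library at a time gave 21 to 24 members lower with ICG-001, 14 to 23 with CWP232228 (14 without CWP232228 replicate 2) and 20 to 27 with YB-0158, and 0 to 1, 0 to 4 and 0 to 1 higher. Higher in CWP232228 than ICG-001 were 0 to 21 and lower 0 to 0. YB-0158 against ICG-001 gave 0 to 1 higher and 0 to 0 lower, and YB-0158 against CWP232228 0 to 21 lower and 0 to 0 higher. The further lists gave 6 to 10 isoprenoid genes called with at least 1 compound, 3 to 8 of SREBP processing, 15 to 18 of trafficking and 5 to 8 of LXR.

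Higher members with ICG-001 were 2 with no filter on low counts, and 0 with limma voom, with only the groups compared and without the 49 h libraries. With CWP232228 they were 4 with no filter and with the crossed replicate block, 2 with DESeq2, and 0 with voom, only the groups compared, the GC content and length offsets, the replicate block with those offsets, and without the 49 h libraries. With YB-0158 they were 0 under those last 5 settings. Lower members with CWP232228 were 1 without the 49 h libraries, where ICG-001 and CWP232228 each keep 1 library. CWP232228 was above ICG-001 for 21 members with voom and with only the groups compared, 23 with the offsets, 22 with the replicate block and offsets, 16 with the crossed block, 4 with each FPKM fit (pseudocounts 0.1 and 1) and 0 without the 49 h libraries, and below it for 1 with the offsets. YB-0158 was above ICG-001 for 1 with no filter, DESeq2, voom, only the groups compared or the offsets. It was below CWP232228 for 21 with voom and with only the groups compared, 24 with the offsets with or without the replicate block, 5 with each FPKM fit and 0 without the 49 h libraries. Isoprenoid genes called were 9, but 3 without the 49 h libraries and 4 with FPKM. SREBP processing genes were 7, but 3 with only the groups compared, 4 with the replicate block and offsets or FPKM, and 1 without the 49 h libraries. Trafficking genes were 17, but 11 with FPKM, and LXR genes 7, but 4 with FPKM.

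Signs turned with the offsets for NR1H2 (0.17 with ICG-001, 0.11 with YB-0158), HMGCS1 (-0.31), PMVK (0.01), CYP51A1 (-0.28) and INSIG2 (-0.04), the last 4 with CWP232228, and the replicate block with offsets gave the same values. Among values called neither with nor without the offsets, signs also turned with CWP232228 for LBR (-0.14), SC5D (-0.12), STARD4 (-0.23) and NPC1 (-0.09), and with ICG-001, CWP232228 and YB-0158 for NPC2 (0.15, 0.09 and 0.08) and GGPS1 (-0.13, -0.13 and -0.02). The cause was not tested.

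Same-numbered libraries did not pair DMSO with the compounds (correlations of deviations -0.35, -0.37 and -0.28 over 8568 genes), though compounds correlated with each other (0.27 to 0.52). The replicate block alone called 23, 20 and 24 members lower against DMSO, 7 higher in CWP232228 than ICG-001 and 8 lower in YB-0158 than CWP232228. The crossed pairing was added after seeing the data.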

Other observations

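Salmon's estimates placed the change of SREBF1 unevenly over its transcripts. ENST00000355815.8 was at 8.98 and 5 TPM with ICG-001, 12.6 and 12.0 TPM with CWP232228 and 7.54 and 7.93 TPM with YB-0158, against 25.4 and 18.7 TPM with DMSO. ENST00000261646.10 of SREBF1 was at 12.4 and 12.6 TPM with ICG-001, 14.0 and 14.2 TPM with CWP232228 and 10.7 and 10.5 TPM with YB-0158, against 18.2 and 20.5 TPM with DMSO. For GGPS1, whose gene total was called with no compound, ENST00000488594.5 was at 4.59 and 6.73 TPM with ICG-001, 10.9 and 10.7 TPM with CWP232228 and 1.80 and 0 TPM with YB-0158, and was listed at 0 in both DMSO libraries. ENST00000391855.2 of GGPS1 went the other way, at 12.5 and 12.4 TPM with ICG-001, 6.66 and 7.86 TPM with CWP232228 and 12.4 and 15.9 TPM with YB-0158. With DMSO it was at 16.9 and 17.2 TPM. Further transcripts of both genes, some higher and some lower than with DMSO, are not given. All of these are model estimates of transcripts that share most of their sequence, and they were not tested.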
